A study of Mus musculus with 23 samples.

Results

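Voltage-gated and related ion channels were followed through quadriceps muscle and epididymal fat of mice with and without pancreatic tumors. The genes were taken by symbol, as every row that starts with Kcn (potassium channels), Scn and a digit (sodium channels), Clcn (chloride channels) or Cacn (calcium channels), together with Lrrc38, which was taken by name. Quadriceps data held 71 of these among 12831 genes and fat data 106 among 16962. Both tissues shared 65 of them, and 112 were in at least 1 tissue. The 6 found in quadriceps alone were Cacna1i, Cacna2d4, Cacng6, Kcna7, Kcnv2 and Lrrc38.

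A muscle fiber is excited when Scn4a, the pore of its sodium channel, opens and carries the action potential along the membrane and into the T-tubules. There the calcium channel Cacna1s acts as the voltage sensor that opens the calcium release channel Ryr1, while the chloride channel Clcn1 and the inward rectifier Kcnj2 hold the membrane near rest. The pores are joined by auxiliary subunits that set their number at the surface and their gating, and Lrrc38 is such a subunit (gamma) for Kcnma1, the calcium-activated BK channel. Adipocytes are not excitable in this way, and a fat pad also holds vessels, nerves and immune cells with channels of their own.

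The mice were male C57BL/6 animals (C57BL/6J by the methods) that were 8 weeks old at surgery. No tumor mice had a sham operation. KPC mice received, into the pancreas, cells of 1 clone of a line from a tumor of the KPC model (with Trp53 R172H and Pdx1-Cre among its alleles), transfected without guide RNAs. KPC IL6KO mice received 1 clone of the same line after CRISPR/Cas9 editing of Il6, so that a difference between both tumor groups is also a difference between 2 clones, and the edit was in the tumor cells and not in the hosts. All groups were killed when the KPC mice had wasted. For quadriceps there were 3 libraries of no tumor mice and 4 of each tumor group, for fat 4 libraries of each group, and the tissues were isolated and sequenced at separate times.

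Levels are reported as CPM, the counts scaled to a common library size after TMM normalization. A gene was called where edgeR's quasi-likelihood test gave a false discovery rate (FDR) of at most 0.05 over all genes of the table and the fold change (FC) was at least 1.5. The libraries held 19259763 to 74907810 counts in muscle and 26306377 to 56308545 in fat, and ion channel genes took 0.332% to 0.632% and 0.109% to 0.202% of them. At these depths the 3 counts taken as the floor are worth 0.0462 to 0.154 CPM in muscle and 0.0474 to 0.123 CPM in fat. The spread between libraries of a group was a coefficient of variation of 22.7% in muscle and 63.5% in fat (common dispersion). The muscle libraries carried the myofiber markers Ckm, Acta1, Ttn, Pvalb and Myh4, whose levels summed to 87549 to 166188 CPM. In fat the adipocyte markers summed to 916 to 17184 CPM and genes of the epididymis, the organ the pad lies on, made up 0.0754% to 7.68% of all counts. In either tissue, fewer cells of a type and less RNA per cell cannot be told apart.

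Ion channel genes fell more often than they rose in quadriceps of KPC mice. Of the 71 genes, 33 were called lower in KPC than in no tumor and 12 higher, where 29.0% of all genes were called lower and 26.7% higher (55.7% in all). Without Lrrc38 the counts were 32 lower and 12 higher of 70. The median log2 FC was -0.53 over the 71 ion channel genes and -0.03 over all genes. The median was -0.69 without KPC replicate 2 and the number called lower was 31 to 34 with any 1 library left out.

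**Figure D1:**
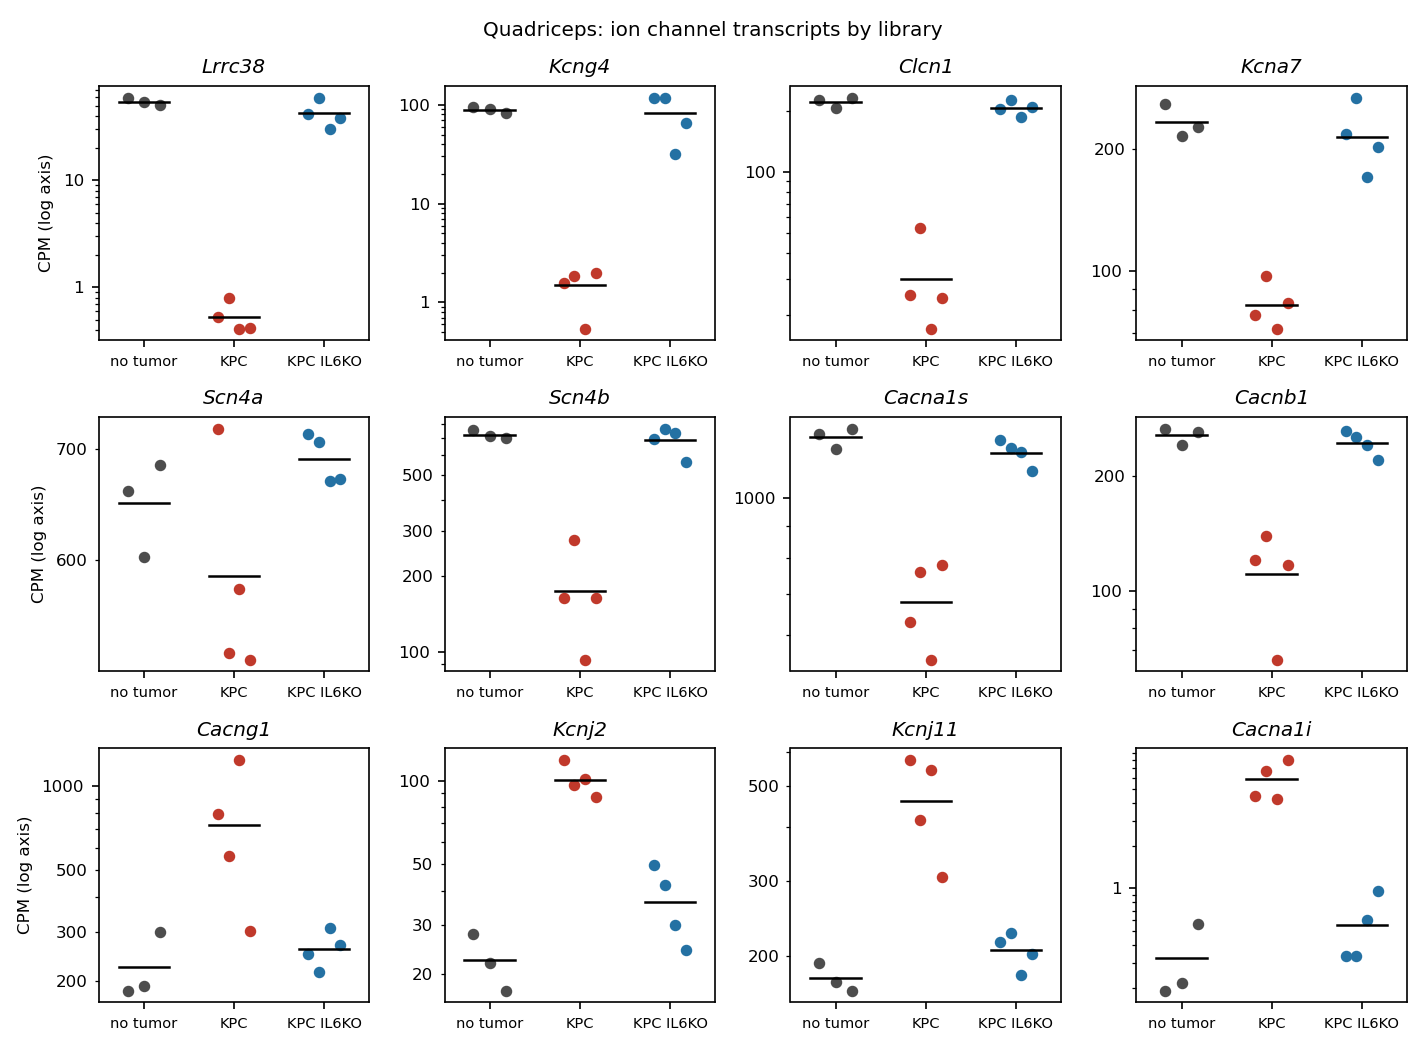
CPM (log axis) of 12 ion channel genes in each quadriceps library, with 1 point per library and a line at the group mean. The 4 KPC libraries lie below all others for Lrrc38, Kcng4, Clcn1, Kcna7, Scn4b, Cacna1s and Cacnb1 and above the no tumor libraries for Cacng1, Kcnj2, Kcnj11 and Cacna1i, while the groups overlap for Scn4a.

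The lowest level relative to no tumor was that of Lrrc38 (chr4:143349757-143371032, plus strand, GRCm38). Lrrc38 was measured at 58.9, 53.8 and 50.3 CPM in the no tumor libraries, 0.524, 0.787, 0.409 and 0.414 in KPC and 41.7, 59.3, 30.4 and 38.5 in KPC IL6KO. Every KPC library was far below the no tumor level. Most KPC IL6KO libraries lay below the no tumor range, and the highest of them lay just above it. The KPC values rest on 34, 46, 25 and 22 counts, all above the floor, and the fitted log2 FC was -6.66. Since Lrrc38 was listed by name with its fall already known, no test is given for it. Its partner pore Kcnma1 had 34.0, 28.8 and 31.2 CPM in the no tumor libraries, 27.4, 25.02, 19.9 and 17.8 in KPC and 31.7, 32.9, 22.6 and 28.2 in KPC IL6KO. The KPC libraries were below the no tumor range but by less than the FC threshold (log2 FC -0.47, FDR 0.0251), so Kcnma1 was not called. Lrrc52, the only other gamma subunit of this family in the muscle table, fell from 0.890 ± 0.332 (SD, n = 3) to 0.211 ± 0.298 CPM (n = 4), a log2 FC of -2.16 with an FDR of 0.0436. Its KPC libraries ranged from 0 to 0.640 CPM and overlapped the no tumor range of 0.512 to 1.14 CPM. Against KPC IL6KO it was not called. No value was read in muscle for Kcnmb1, the beta subunit of smooth muscle BK channels.

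The promoters of the genes with the lowest and the highest log2 FC in KPC muscle, and of the chloride channel Clcn1, are shown to give the sequence around their starts. Each runs from 250 bases before to 50 bases after the RefSeq start of the gene on GRCm38.p6, and the position is that of the window. Capitals mark a match to 1 of 3 motifs searched on both strands, the E-box CAGCTG, the STAT motif TTCNNNGAA and the glucocorticoid receptor half-site AGAACA.
Lrrc38 (chr4:143349500-143349799, plus strand): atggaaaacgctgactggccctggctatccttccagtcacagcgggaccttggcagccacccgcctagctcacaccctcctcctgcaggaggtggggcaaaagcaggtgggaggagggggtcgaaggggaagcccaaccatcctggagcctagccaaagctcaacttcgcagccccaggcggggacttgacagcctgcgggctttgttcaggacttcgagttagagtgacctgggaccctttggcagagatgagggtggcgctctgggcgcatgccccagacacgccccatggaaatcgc
Kcng4 (chr8:119635631-119635930, minus strand): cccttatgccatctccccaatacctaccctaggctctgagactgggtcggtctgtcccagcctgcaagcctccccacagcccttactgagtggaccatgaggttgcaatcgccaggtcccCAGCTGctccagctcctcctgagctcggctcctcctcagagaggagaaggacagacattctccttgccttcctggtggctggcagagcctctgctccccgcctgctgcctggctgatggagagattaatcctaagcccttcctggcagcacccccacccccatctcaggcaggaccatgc
Clcn1 (chr6:42286435-42286734, plus strand): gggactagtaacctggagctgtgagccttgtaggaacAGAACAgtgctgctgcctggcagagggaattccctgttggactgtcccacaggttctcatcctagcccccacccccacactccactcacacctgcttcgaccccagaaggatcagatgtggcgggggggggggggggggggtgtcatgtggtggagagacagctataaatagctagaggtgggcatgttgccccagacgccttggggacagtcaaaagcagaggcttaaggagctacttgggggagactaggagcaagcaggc
Cacna1i (chr15:80286988-80287287, plus strand): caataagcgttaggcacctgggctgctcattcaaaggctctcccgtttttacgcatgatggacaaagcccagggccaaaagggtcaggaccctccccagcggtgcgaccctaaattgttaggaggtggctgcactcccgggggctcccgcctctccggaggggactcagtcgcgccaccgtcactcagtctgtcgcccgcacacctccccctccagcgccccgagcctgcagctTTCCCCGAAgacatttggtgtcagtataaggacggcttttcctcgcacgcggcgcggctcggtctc
Lrrc38 had none of these motifs in its window, Kcng4 had 1 E-box, Clcn1 had 1 glucocorticoid receptor half-site and Cacna1i had 1 STAT motif. Of the muscle genes, 51 had a promoter in the table, 25 of them called lower, 8 called higher and 18 not called. The E-box was in 6 of the 25 lower, 2 of the 8 higher and 7 of the 18 not called, and in 18.3% of 27025 promoters of all genes. The STAT motif was in 3 of 25, 2 of 8 and 1 of 18, and in 9.55% of all promoters. The half-site was in 7 of 25, 0 of 8 and 1 of 18, and in 21.3% of all promoters. These are matches of letters in a short window.

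Among the voltage-gated sodium channels the pore of the fiber was not called, while 2 of 4 beta subunits fell and 1 rose (29.0% and 26.7% of all genes). Scn4a had 661, 602 and 685 CPM in the no tumor libraries, 721, 527, 576 and 522 in KPC and 716, 707, 669.9 and 672 in KPC IL6KO. The groups overlap, and the log2 FC was -0.15 with a 95% interval of -0.42 to 0.12. Scn4b, a beta subunit, had 752, 717 and 699.6 CPM in the no tumor libraries, 163, 277, 93.0 and 164 in KPC and 697, 764, 735 and 562 in KPC IL6KO, and all 4 KPC libraries were below the rest (log2 FC -2.05, SE 0.27, FDR 5.49e-05).

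Of the 5 sodium channel pores, Scn2a1, a channel known from neurons, was the 1 called, from 0.438 ± 0.175 (SD, n = 3) to 0.0447 ± 0.0440 CPM (n = 4, log2 FC -3.36, SE 0.60, FDR 4.36e-04), with 0, 4, 1 and 5 counts in the KPC libraries. Scn3b, another beta subunit, rose from 1.03 ± 0.138 to 2.36 ± 0.540 CPM (log2 FC 1.19).

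The calcium channel of the T-tubule fell in part. Cacna1s had 1267, 1196 and 1292 CPM in the no tumor libraries, 629, 758, 548 and 780.0 in KPC and 1237, 1202, 1186 and 1102 in KPC IL6KO, and its KPC libraries were all below the others (log2 FC -0.88, SE 0.13, FDR 1.00e-04). Cacnb1, the beta subunit it needs to reach the membrane, had 266, 241 and 261 CPM in the no tumor libraries, 121, 139.5, 66.2 and 117 in KPC and 261, 253, 241 and 219 in KPC IL6KO (log2 FC -1.21, SE 0.20, FDR 2.24e-04). Cacna2d1, the alpha2delta subunit of the same complex, had 265, 228 and 275 CPM in the no tumor libraries, 306, 231, 177 and 236 in KPC and 296, 272, 261 and 328 in KPC IL6KO, and the groups overlap (log2 FC -0.11, 95% interval -0.47 to 0.25).

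The gamma subunits moved in opposite directions. Cacng1, the gamma subunit bound to Cacna1s in muscle, had 184, 192 and 298 CPM in the no tumor libraries, 795, 561, 1244 and 303 in KPC and 249, 215, 309 and 269 in KPC IL6KO. KPC replicate 4 lay just above the highest no tumor library and the other KPC libraries well above it (log2 FC 1.69, SE 0.39, FDR 0.00218). Cacng6 fell from 86.2 ± 8.51 to 41.3 ± 11.6 CPM (log2 FC -1.06) and Cacng7 from 10.8 ± 0.733 to 6.67 ± 1.42 CPM (log2 FC -0.70).

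Pores of the T-type, which open at low voltage, also differed among themselves. Cacna1i had 0.190, 0.216 and 0.564 CPM in the no tumor libraries, 4.45, 6.76, 4.27 and 8.07 in KPC and 0.335, 0.333, 0.598 and 0.960 in KPC IL6KO, the largest rise of the 71 genes (log2 FC 4.37, SE 0.51, FDR 2.22e-05). Cacna1g, of the same type, fell (log2 FC -1.76), and Cacna1h, the T-type pore of developing muscle, had 3.93, 3.43 and 2.15 CPM in the no tumor libraries, 1.25, 2.82, 1.39 and 6.29 in KPC and 2.501, 4.09, 4.09 and 2.38 in KPC IL6KO and was not called (log2 FC -0.13). The pores Cacna1a and Cacna1c, better known from nerve endings and from heart and smooth muscle, fell by 1.97 and 0.74 on the log2 scale from 3.11 ± 0.385 and 3.84 ± 0.470 CPM.

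Clcn1, the channel that carries most of the resting chloride current of a fiber, had 226, 206 and 232 CPM in the no tumor libraries, 24.9, 53.4, 17.1 and 24.3 in KPC and 204, 227, 187 and 209 in KPC IL6KO. The lowest no tumor library was 3 or more times the highest KPC library (log2 FC -2.89, SE 0.30, FDR 1.05e-05). Its exons share bases with Fam131b on the other strand, and whether the counting used strand is not stated. The other chloride genes are exchangers of endosomes and lysosomes or have other roles. Clcn3 fell from 45.7 ± 2.97 to 28.1 ± 2.16 CPM (log2 FC -0.70) and Clcn7, the lysosomal exchanger, rose from 31.7 ± 2.15 to 51.5 ± 6.92 CPM (log2 FC 0.70), while its partner Ostm1 fell (log2 FC -0.94). Clcn5 fell from 0.723 ± 0.158 CPM (log2 FC -1.09), and Clcn2, Clcn4-2 and Clcn6 were not called.

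The voltage-gated potassium channels (Kv) were the largest family, with 9 of 17 pores lower, 2 higher and a median log2 FC of -1.41, beside 29.0% and 26.7% of all genes called. Kcng4, a silent subunit that forms channels only together with other Kv pores, had 94.4, 90.4 and 82.9 CPM in the no tumor libraries, 1.56, 1.87, 0.540 and 1.98 in KPC and 116, 118, 31.5 and 65 in KPC IL6KO. The KPC libraries rest on 101, 109, 33 and 105 counts and lay far below the KPC IL6KO libraries, which spread more widely than the no tumor libraries (log2 FC -5.91, SE 0.50, FDR 3.16e-06).

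Kcna7, a Kv1 pore of muscle and the Kv gene with the highest level per kb in no tumor, had 259, 216 and 227 CPM in the no tumor libraries, 77.8, 97.4, 71.9 and 83.1 in KPC and 218, 269, 171 and 203 in KPC IL6KO (log2 FC -1.51, SE 0.16, FDR 9.80e-06). Kcnc1, a fast Kv3 pore, fell from 119 ± 5.33 to 30.1 ± 7.08 CPM (log2 FC -1.99), whereas Kcnc4 of the same subfamily rose from 114 ± 6.91 to 235.2 ± 57.5 CPM (log2 FC 1.04). Kcnh2, the pore of the hERG current, had 3.46, 4.39 and 2.20 CPM in the no tumor libraries, 0.262, 0.205, 0.180 and 0.678 in KPC and 4.29, 3.45, 1.86 and 1.90 in KPC IL6KO (log2 FC -3.36, SE 0.48, FDR 8.56e-05).

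Of the other silent subunits, Kcns1 fell from 0.766 ± 0.253 CPM to a mean of 0.0607 CPM, with 5, 3, 7 and 0 counts in the KPC libraries, and Kcns3 from 1.27 ± 0.674 to 0.274 ± 0.149 CPM (log2 FC -2.21). Kcnv2 rose from 0.209 ± 0.141 to 1.96 ± 0.396 CPM (log2 FC 3.40). Kcnq5 fell (log2 FC -1.41), while Kcnq1, Kcna1, Kcna2, Kcna5 and Kcnf1 were not called. Of the auxiliary subunits beside Lrrc38, Kcnab1 and Kcnab2, which bind Kv1 pores, fell by 2.04 and 0.96 on the log2 scale.

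Among the channels opened by calcium, Kcnn2 (SK2) had 3.52, 3.12 and 2.10 CPM in the no tumor libraries, 0.0770, 0.479, 0.0327 and 0.339 in KPC and 2.72, 2.45, 1.86 and 2.35 in KPC IL6KO, with KPC libraries of 5, 28, 2 and 18 counts (log2 FC -3.67, SE 0.57, FDR 1.57e-04). Kcnn4, the intermediate conductance channel, had 0.502, 0.588 and 0.512 CPM in the no tumor libraries, 0.354, 0.171, 0.262 and 0.376 in KPC and 0.650, 0.631, 0.645 and 0.635 in KPC IL6KO and was called lower (log2 FC -0.88, FDR 0.0186), but not without no tumor replicate 2 (FDR 0.0727). Kcnn3 (SK3), which is known to appear in denervated muscle, had 1.87, 1.82 and 1.79 CPM in the no tumor libraries, 1.82, 1.06, 1.13 and 1.94 in KPC and 1.87, 1.19, 2.05 and 1.30 in KPC IL6KO and was not called. Kcnn1 (SK1) was at 29.1 ± 1.64 CPM in no tumor and 24.7 ± 4.87 CPM in KPC, and was not called.

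Inward rectifiers gave 2 of the 12 rises. Kcnj2 (Kir2.1), which carries the resting potassium current, had 27.9, 21.8 and 17.3 CPM in the no tumor libraries, 119, 96.4, 101 and 87.0 in KPC and 49.4, 41.8, 30.1 and 24.4 in KPC IL6KO. The KPC libraries lay 3 or more times above the highest no tumor library (log2 FC 2.17, SE 0.25, FDR 1.95e-05). Kcnj12 (Kir2.2), its close relative in muscle, fell from 91.3 ± 7.53 to 38.6 ± 15.96 CPM (log2 FC -1.24).

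Kcnj11 (Kir6.2), the pore of the ATP-sensitive channel, had 193, 173 and 165 CPM in the no tumor libraries, 576, 416, 545 and 305 in KPC and 216, 226, 179.8 and 202 in KPC IL6KO (log2 FC 1.38, SE 0.20, FDR 9.00e-05). The sulfonylurea receptors complete this channel. Abcc8, the type first known from beta cells, rose from 3.33 to 35.5 CPM (log2 FC 3.40, FDR 7.29e-05), and Abcc9, the muscle type, had 251.6 ± 19.8 CPM in no tumor and 272.8 ± 44.6 CPM in KPC and was not called. Kcnj8 (Kir6.1), the vascular pore, had 17.9, 15.5 and 11.4 CPM in the no tumor libraries, 8.99, 14.4, 14.1 and 17.0 in KPC and 17.7, 18.8, 20.3 and 15.5 in KPC IL6KO, with overlap (log2 FC -0.14).

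Two-pore potassium (K2P) channels carry leak current. Kcnk5 (TASK-2) had 1.39, 1.69 and 2.10 CPM in the no tumor libraries, 13.6, 11.3, 46.5 and 2.45 in KPC and 1.40, 0.877, 1.02 and 1.03 in KPC IL6KO. KPC replicate 3 was highest and KPC replicate 4 close to the no tumor libraries (log2 FC 3.45, SE 0.77, FDR 0.00187). Kcnk1 (TWIK-1) had 1.25, 0.529 and 0.307 CPM in the no tumor libraries, 2.31, 1.30, 6.63 and 3.802 in KPC and 0.453, 0.193, 1.12 and 0.549 in KPC IL6KO (log2 FC 2.25, SE 0.67, FDR 0.0107), and Kcnk2 (TREK-1), which stretch opens, fell from 2.19 ± 0.391 to 0.593 ± 0.107 CPM (log2 FC -1.89). Kcnk6 fell by 0.85 on the log2 scale, and Kcnk3 (TASK-1) was not called, with 3.84, 10.2 and 1.74 CPM in the no tumor libraries, 2.34, 12.5, 0.393 and 0.151 in KPC and 1.36, 0.228, 0.551 and 1.13 in KPC IL6KO.

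Kcnq1ot1, a long noncoding RNA from the opposite strand of Kcnq1 and no channel, met the rule by its symbol. It had 1.89, 2.08 and 1.28 CPM in the no tumor libraries, 3.65, 2.45, 7.25 and 4.31 in KPC and 1.16, 1.17, 1.21 and 1.56 in KPC IL6KO (log2 FC 1.31, SE 0.33, FDR 0.00430), while Kcnq1 was not called. Reads of such partners could not be told apart if strand was ignored, and exons of 22 of the 71 genes overlap an exon on the other strand.

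**Figure D2:**
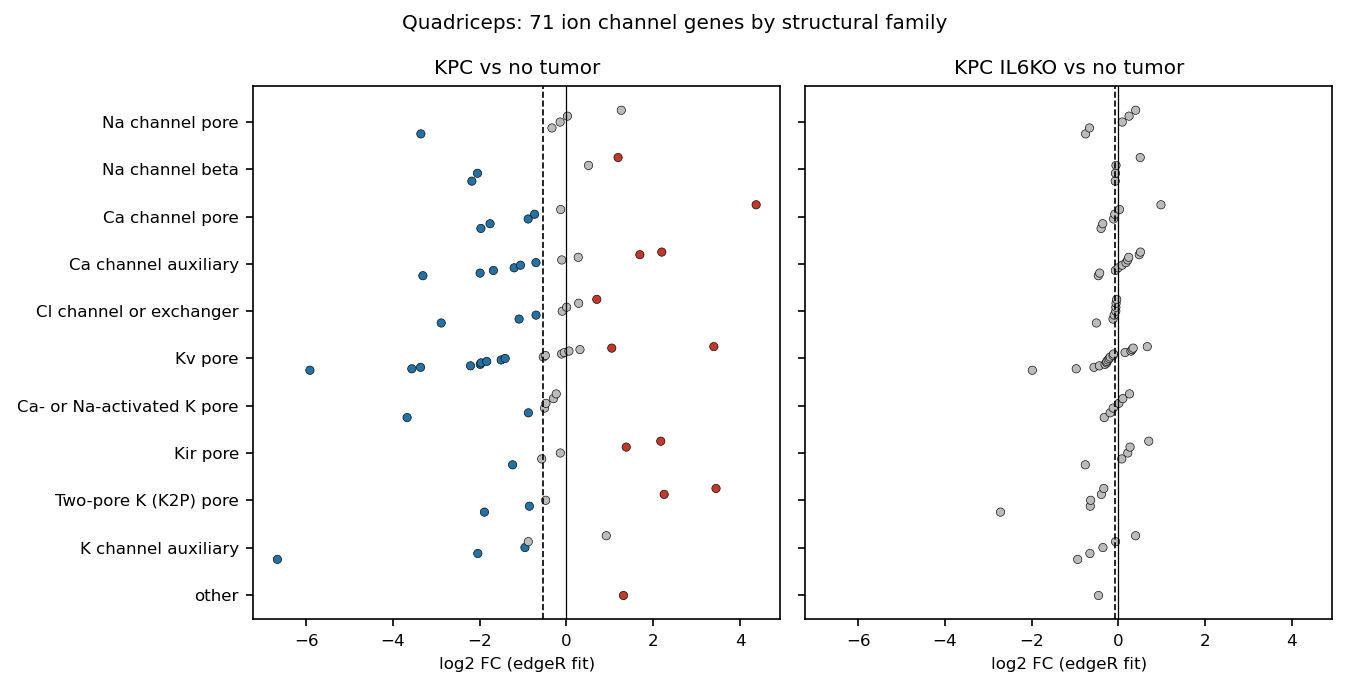
log2 FC of each of the 71 ion channel genes (x axis) in quadriceps by structural family (y axis), for KPC and for KPC IL6KO against the same no tumor libraries, with called falls in blue, called rises in red, uncalled genes in grey and the median as a dashed line. In KPC 33 genes are blue and 12 red with a median of -0.53, and in KPC IL6KO none is called and the median is -0.08.

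Per kb of exon, which allows genes to be compared, the order of the ion channel transcripts changed. In no tumor muscle Cacna1s had 191 ± 7.58 CPM per kb (SD, n = 3) and Cacng1 179.9 ± 51.1, and their ranges overlapped. Scn4b had 145 ± 5.31, Kcna7 107 ± 10.2 and Scn4a 92.2 ± 6.02 CPM per kb. In KPC Cacng1 was highest at 581 ± 320.0 CPM per kb (n = 4), with Kcnj11 at 125 ± 33.9, Cacna1s at 104 ± 16.8 and Scn4a at 83.3 ± 13.2, and the ranges of the last 3 each overlapped the next. Lrrc38 went from 23.4 ± 1.87 to 0.230 ± 0.0763 CPM per kb, and its pore Kcnma1 from 1.84 ± 0.152 to 1.33 ± 0.261.

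**Figure D3:**
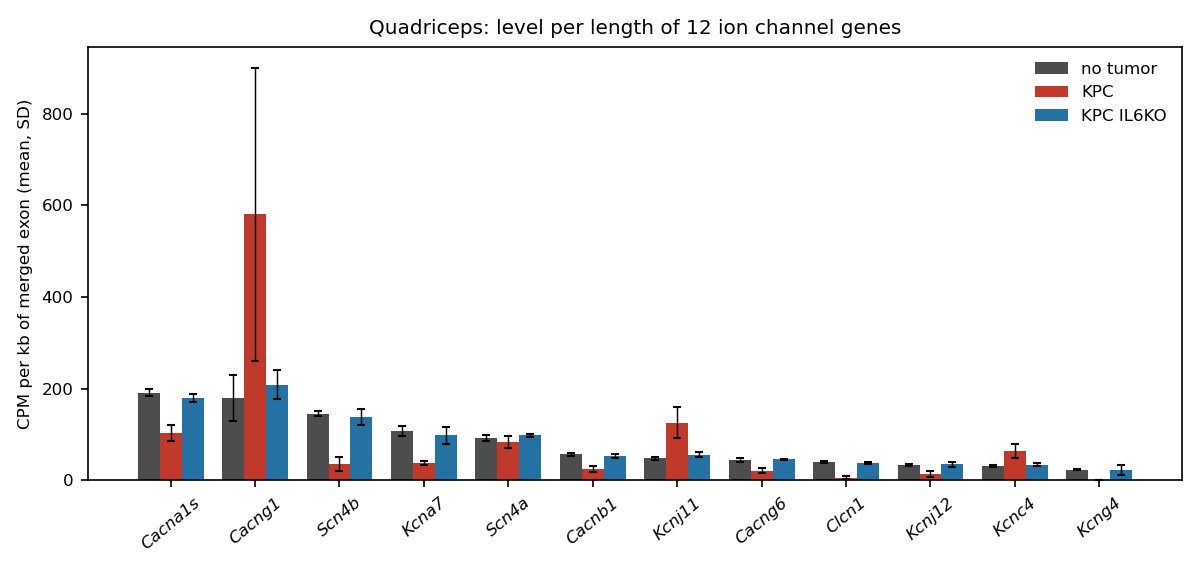
Level in CPM per kb of merged exon (y axis, mean with SD) of 12 ion channel genes of quadriceps, in order of the no tumor level, in 3 no tumor, 4 KPC and 4 KPC IL6KO libraries. Of these, Cacna1s leads in no tumor and Cacng1 in KPC IL6KO and in KPC, where it has the widest error bar.

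Over the 11 muscle libraries the genes whose log2 CPM followed Lrrc38 most closely were Kcng4 (Pearson r 0.985), Kcna7 (0.984), Clcn1 (0.981), Clcn3 (0.975) and Kcnc1 (0.961). The KPC libraries stand apart for all of them and all points share depth and tissue. Over the 7 libraries without KPC the values were 0.810, 0.933, 0.833, 0.0569 and 0.971, so that Clcn3 did not follow Lrrc38 there.

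Proteins that place, gate or supply the channels were read as lists written with earlier results of these data known. Beside the 29.0% of all genes called lower and 26.7% called higher, 13 of the 23 channel partners measured fell and 4 rose. Jph2, the junctophilin that ties the T-tubule to the calcium store, fell from 1367 to 165 CPM (log2 FC -3.05, FDR 5.69e-05). Stac3, which couples Cacna1s to the release channel, fell from 329 to 117 CPM (log2 FC -1.49, FDR 1.47e-06), and the calmodulin genes Calm2 and Calm3 fell by 2.18 and 2.14 on the log2 scale. Ank3, the ankyrin that anchors sodium channels, rose from 97.2 to 382 CPM (log2 FC 1.97, FDR 2.64e-05), and Ryr1 was not called (log2 FC 0.31).

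Of 16 pumps and exchangers 8 fell and 3 rose (29.0% and 26.7% of all genes), with a median log2 FC of -0.66. Their summed level was nonetheless higher in every KPC library, at 4715 to 10125 CPM against 2836 to 3226 CPM in no tumor. Atp1b1 and Atp1b2, beta subunits of the sodium pump, fell by 2.22 and 2.25 on the log2 scale. The sodium-calcium exchanger Slc8a3 fell from 81.4 to 8.63 CPM (log2 FC -3.24, FDR 2.25e-04).

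Of 30 channels of other families 9 fell and 3 rose, so that falls were near the 29.0% of all genes and rises below the 26.7%, and the median log2 FC was -0.13. Panx1, a large-pore channel that lets ATP out, rose from 5.12 to 38.7 CPM (log2 FC 2.93, FDR 7.83e-06). Orai1 and Stim1, the pore and the sensor of store-operated calcium entry, fell by 1.21 and 0.84 on the log2 scale.

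Markers of other cells and of denervation moved in the same libraries, where 29.0% of all genes were called lower and 26.7% higher. The smooth muscle markers, 5 of 5 lower, summed to 178, 197 and 158 CPM in no tumor and 50.3, 75.6, 44.4 and 79.5 CPM in KPC. The Schwann cell markers, 5 of 7 lower, summed to 91.4, 133 and 67.1 CPM in no tumor, 22.7, 40.3, 72.2 and 62.7 CPM in KPC and 46.3, 61.5, 47.8 and 45.2 CPM in KPC IL6KO. The genes that rise in denervated muscle, 5 of 9 higher with Gadd45a among them, summed to 90.7, 77.1 and 90.2 CPM in no tumor and 334, 282, 824 and 245 CPM in KPC. Of the denervation genes, Chrna1 and Chrnd, subunits of the acetylcholine receptor, were not called and Chrnb1 rose (log2 FC 1.33). Of the myofiber markers 2 of 5 fell, and their sum was 87549 to 109349 CPM in KPC against 132184 to 164870 CPM in no tumor. Of the neutrophil markers 3 of 3 rose, of the macrophage markers 1 rose and 2 fell of 7, and 1 of 5 fell in each of the endothelial and adipocyte lists. The part of these cells and states in the ion channel values was not tested.

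In mice with KPC IL6KO tumors no ion channel gene of quadriceps was called against no tumor, nor was any other gene (0%). The no tumor libraries are those used for KPC. By edgeR's quasi-likelihood test 5 of the 71 genes and 887 of 12831 genes had an unadjusted p under 0.05. The likelihood ratio test of edgeR called Kcns3 lower (0.546% of all genes lower and 0.195% higher), and DESeq2 called no ion channel gene (0.493% lower and 0.235% higher). The paper also reports genes changed in this comparison at the same FDR and FC. The median log2 FC over the 71 genes was -0.08.

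Named by the smallest p were Kcns3, Kcnj2, Kcnk3 and Kcnk2. Kcns3, whose values were 0.762, 2.04 and 1.02 CPM in the no tumor libraries, 0.323, 0.462, 0.180 and 0.132 in KPC and 0.591, 0.210, 0.315 and 0.189 in KPC IL6KO, had overlapping KPC IL6KO and KPC libraries (log2 FC -1.98, FDR 0.298 against no tumor). Kcnj2 had a log2 FC of 0.70 (95% interval 0.18 to 1.22, FDR 0.4997), with 3 of the 4 KPC IL6KO libraries above the no tumor range and all below the KPC range. Kcnk3 and Kcnk2 had log2 FC of -2.72 and -0.64, with FDR of 0.648 and 0.695.

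Of the 45 genes called in KPC, 41 had KPC IL6KO libraries that overlapped the no tumor range, and 82.9% of all genes called in KPC did. Over all 71 genes the KPC IL6KO libraries lay wholly below the no tumor range for 6 and above it for 1, where 8.01% and 7.54% of all genes did. Among the called genes the exceptions were Cacna1a, Kcnk6 and Kcns3, below it, and Kcnn4, above it. For Clcn1 the KPC IL6KO log2 FC was -0.10 with a 95% interval of -0.74 to 0.54, and for Cacna1s -0.08 with -0.36 to 0.20. For Kcng4, whose KPC IL6KO libraries spread from 31.5 to 118 CPM, it was -0.11 with the wider interval of -1.03 to 0.81.

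Set directly against KPC IL6KO, KPC muscle had 31 of 71 ion channel genes lower and 14 higher, where 27.3% and 26.4% of all genes were called (53.6% in all). The median log2 FC was -0.35, and it was -0.53 without KPC replicate 4. This comparison shares the KPC libraries with the first. Clcn1, Scn4b and Kcng4 had log2 FC of -2.79, -1.98 and -5.80. Kcnj2, Kcnj11, Cacng1 and Cacna1i had 1.47, 1.16, 1.48 and 3.39. Kcne4, a small subunit of Kv channels, was called higher here (log2 FC 1.57, FDR 0.00311) but not against no tumor (log2 FC 0.92, FDR 0.0665), with values of 1.84, 2.18 and 1.18 CPM in the no tumor libraries, 5.02, 1.52, 1.87 and 4.89 in KPC and 1.08, 1.12, 1.26 and 0.995 in KPC IL6KO.

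In epididymal fat no ion channel gene was called by edgeR's quasi-likelihood test in any comparison, and no gene of the table was (0%). An unadjusted p under 0.05 was found for 19 of 106 ion channel genes and 2061 of 16962 genes in KPC against no tumor, for 7 and 1584 in KPC IL6KO against no tumor, and for 21 and 1062 in KPC against KPC IL6KO. The median log2 FC of the 106 genes was -0.58, -0.18 and -0.26 in these comparisons and -0.10, -0.03 and -0.05 over all genes. In KPC against no tumor the likelihood ratio test called Kcnd3 and Kcna2 lower (0.855% of all genes lower, 1.58% higher) and so did DESeq2 (1.31% and 2.16%). Against no tumor, Kcnn4 was called higher in KPC IL6KO by both (1.23% and 1.66% of all genes higher, 0% and 0.0237% lower). Over all genes the likelihood ratio test called 268 higher and 145 lower in KPC and 209 higher and 0 lower in KPC IL6KO. The paper reports the same counts at this FDR and FC.

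**Figure D4:**
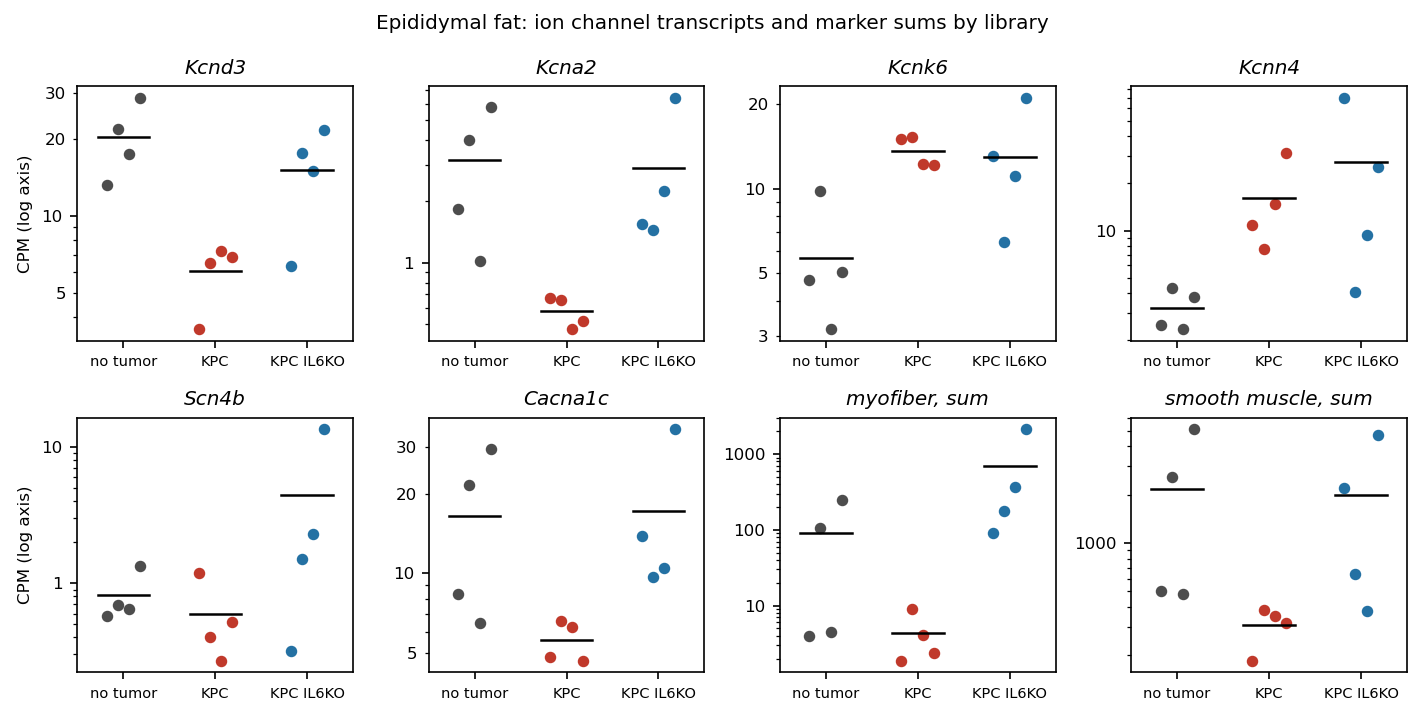
CPM (log axis) of 6 ion channel genes and the summed CPM of myofiber and smooth muscle markers in each fat library, with 1 point per library and a line at the group mean. Kcnd3 and Kcna2 lie lower in all 4 KPC libraries than in no tumor, Kcnn4 and Kcnk6 lie higher, and Scn4b and the myofiber sum are highest in 1 KPC IL6KO library.

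Kcnd3 (Kv4.3), an A-type potassium pore of heart, nerve and smooth muscle, had 13.2, 21.8, 17.4 and 28.9 CPM in the no tumor libraries, 3.59, 6.502, 7.24 and 6.86 in KPC and 6.33, 17.5, 14.98 and 21.5 in KPC IL6KO. All KPC libraries were below the no tumor range, and KPC IL6KO overlapped both (log2 FC -1.75, FDR 0.199 in KPC by the quasi-likelihood test). Kcna2 (Kv1.2) had 1.84, 4.01, 1.02 and 5.82 CPM in the no tumor libraries, 0.672, 0.659, 0.472 and 0.520 in KPC and 1.55, 1.44, 2.26 and 6.45 in KPC IL6KO, also without overlap between KPC and no tumor (log2 FC -2.44, FDR 0.234). Kcnn4, known from T cells and macrophages, had 2.497, 4.29, 2.35 and 3.76 CPM in the no tumor libraries, 10.8, 7.62, 14.9 and 31.4 in KPC and 70.4, 4.08, 9.39 and 25.5 in KPC IL6KO, with every KPC library above no tumor (log2 FC 2.32, FDR 0.290).

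Kcnk6 (TWIK-2) had 4.75, 9.79, 3.16 and 5.04 CPM in the no tumor libraries, 14.98, 15.3, 12.2 and 12.1 in KPC and 13.1, 6.45, 11.1 and 21.1 in KPC IL6KO (log2 FC 1.26 in KPC and 1.19 in KPC IL6KO). Cacnb3, a beta subunit of calcium channels in nerve and immune cells, had 3.32, 8.68, 5.74 and 11.7 CPM in the no tumor libraries, 21.4, 14.1, 14.5 and 19.3 in KPC and 83.6, 5.73, 12.2 and 26.9 in KPC IL6KO, with KPC IL6KO replicate 5 far above the rest. Library ranges of KPC and no tumor fat did not overlap for 14 of 106 genes, 10 lower and 4 higher in KPC, where 4.39% and 6.52% of all genes were lower and higher in this way. Of KPC IL6KO and no tumor fat the ranges overlapped for all 106 genes, where 0.489% of all genes were lower and 1.52% higher.

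Markers of other cells also differed between the fat libraries. The macrophage markers summed to 248, 594, 165 and 296 CPM in no tumor and 1203, 1038, 703 and 711 CPM in KPC, and the smooth muscle markers to 502, 2583, 483 and 5130.5 and 185, 383, 349.9 and 318 CPM. In KPC IL6KO the macrophage sums were 859, 293, 845 and 1634 CPM and the smooth muscle sums 2199, 639.9, 379.7 and 4706 CPM. Kcnn4 and Kcnk6 were higher in the 7 libraries with a macrophage sum of 703 CPM or more than in all others. Cacna1c, the pore of smooth muscle, had 8.31, 21.6, 6.49 and 29.6 CPM in the no tumor libraries, 4.79, 6.59, 6.23 and 4.65 in KPC and 13.8, 9.67, 10.4 and 35.1 in KPC IL6KO, and its 4 highest values were in the 4 libraries with the highest smooth muscle sums. Kcnmb1 (BK beta of smooth muscle) had 3.56, 4.26, 2.60 and 10.3 CPM in the no tumor libraries, 0.876, 2.89, 1.48 and 2.08 in KPC and 3.56, 4.53, 1.99 and 7.34 in KPC IL6KO. The part of these cells in the values was not tested.

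Channels of the muscle fiber were also read in fat. Cacna1s had 0.0409, 0.761, 0.814 and 3.13 CPM in the no tumor libraries, 0, 0.0286, 0.404 and 0.0976 in KPC and 0.564, 1.17, 4.40 and 25.6 in KPC IL6KO, and DESeq2 called it lower in KPC than in KPC IL6KO (0.628% of all genes lower and 0.113% higher), whereas the likelihood ratio test called no ion channel gene in that comparison (0.348% and 0.0413%). Scn4a had 1.31, 0.138, 0.860 and 0.790 CPM in the no tumor libraries, 0.438, 0.745, 0.606 and 0.911 in KPC and 0.123, 2.43, 1.96 and 12.4 in KPC IL6KO and Scn4b 0.573, 0.692, 0.651 and 1.34 CPM in the no tumor libraries, 1.197, 0.401, 0.270 and 0.520 in KPC and 0.319, 1.51, 2.29 and 13.6 in KPC IL6KO. KPC IL6KO replicate 8 was highest for all 3 genes, and the myofiber markers summed to 92.0, 175, 373 and 2139 CPM in KPC IL6KO replicates 5 to 8, against 1.87, 8.99, 4.04 and 2.41 CPM in KPC and 3.97, 107, 4.53 and 251 CPM in no tumor. Without replicate 8 the log2 FC of Cacna1s in KPC against KPC IL6KO was -3.93 in place of -5.89, and the myofiber sums of the remaining KPC IL6KO libraries were still above every KPC library. The part of muscle RNA in these values was not tested.

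Genes of the epididymis set another contrast, both within and between groups. They took 7.09%, 1.30%, 6.67% and 2.07% of the counts in no tumor, 3.59% to 5.87% in KPC and 0.0754%, 7.68%, 1.62% and 1.08% in KPC IL6KO. Gpx5, an epididymis gene, had 39292, 52.2, 34256 and 4.81 CPM in no tumor and 21347 to 40388 CPM in KPC. In KPC IL6KO it had 85.8, 54957, 4.69 and 5.65 CPM. Kcnj11 had 56.7, 0.346, 30.3 and 0.537 CPM in the no tumor libraries, 5.37, 21.4, 17.2 and 7.74 in KPC and 2.06, 39.8, 0.891 and 2.66 in KPC IL6KO and Kcnh3, a Kv pore, 92.2, 2.01, 89.5 and 19.97 CPM in the no tumor libraries, 40.3, 65.6, 54.3 and 48.3 in KPC and 0.638, 70.9, 19.997 and 2.08 in KPC IL6KO. Both were high in no tumor replicates 5 and 7 and KPC IL6KO replicate 6, the libraries with most epididymis counts. Kcnk1, which had the highest level per kb in fat (122 ± 78.4 CPM per kb in no tumor), was 439.6, 75.5, 399 and 175 CPM in the no tumor libraries, 207, 302, 249 and 251 in KPC and 47.7, 409, 159 and 94.0 in KPC IL6KO. With the share of epididymis counts as a covariate no ion channel gene was called in fat, but none was called without it either. That fit therefore cannot show what part the share had.

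The responses to KPC tumors in muscle and fat were compared in a fit of all 23 libraries, in which tissue cannot be told apart from sequencing run. Of the 65 shared genes 12 had a log2 FC called lower in muscle than in fat and 8 called higher, where 18.8% and 18.1% of all shared genes were called (36.9% in all), so the count lower was near the background. With 1 library left out the higher count was 2 to 9, lowest without no tumor muscle replicate 3, and the lower count 9 to 14. For KPC IL6KO tumors no ion channel gene differed by edgeR's quasi-likelihood test (0% of all genes), and 7 of the 65 and 1003 of all 12599 had an unadjusted p under 0.05.

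**Figure D5:**
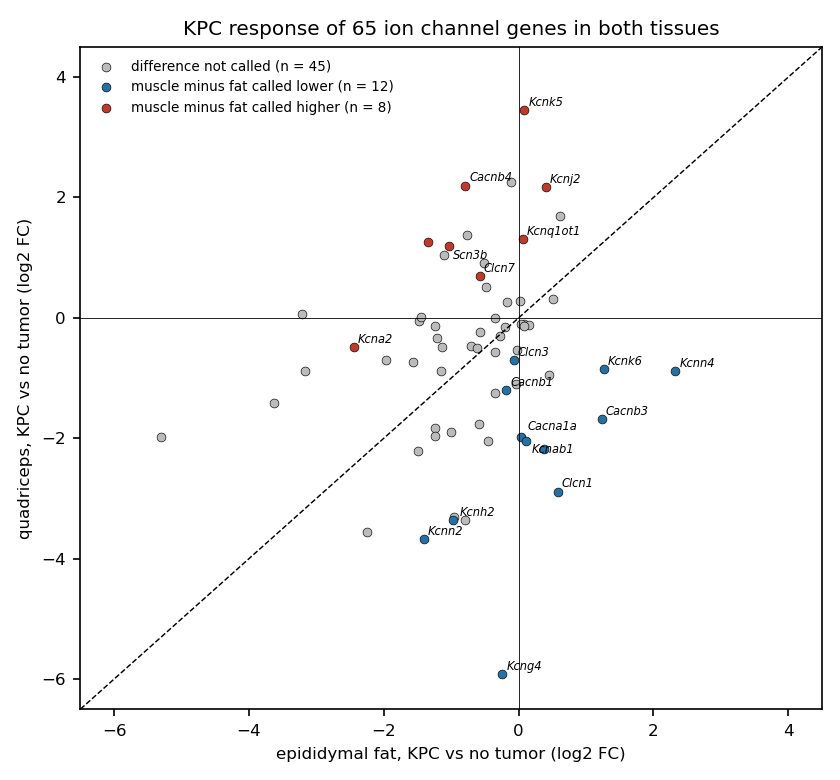
log2 FC of KPC against no tumor in fat (x axis) and quadriceps (y axis) for the 65 ion channel genes in both tables, with genes whose responses differ called in blue (12, muscle lower) or red (8, muscle higher) and a dashed line of equal response, and not every called gene labelled. Kcng4 lies farthest below the line and Kcnk5 highest in muscle.

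Kcng4 differed most, with a muscle log2 FC of -5.91 and a fat log2 FC of -0.24 (difference in the joint fit -5.74, SE 0.89, FDR 7.22e-05). Clcn1 differed by -3.53 (FDR 4.73e-04), but its fat libraries held only 0.173 to 2.08 CPM. Kcnn4, Cacnb3 and Kcnk6 fell in muscle and had positive log2 FC, not called, in fat, with differences of -3.30, -3.003 and -2.23. Kcnk5 had the largest called difference toward muscle (3.22, FDR 0.0131), followed by Cacnb4 (2.91). Kcnj2 rose in muscle with a difference of 1.67 (FDR 0.0187), and in fat it had 13.7, 7.65, 7.39 and 13.1 CPM in the no tumor libraries, 11.7, 21.2, 8.29 and 13.98 in KPC and 8.00, 15.3, 4.16 and 19.2 in KPC IL6KO, with overlap between all groups. Kcna2 was called higher in muscle although it was not called in muscle itself, and its fat log2 FC, also not called, was -2.44.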

How the data were processed

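Libraries were assigned to tissue, group and replicate from their titles. The deposited values are raw counts, 1 table per tissue. As the labels and methods state, the authors aligned reads with STAR to mm10, counted uniquely mapped reads per gene with featureCounts 1.5.1 and compared groups with edgeR 3.12.1. No gene of either table failed the low-count filter used here, the authors' own rule for low genes is not stated, and neither is strand in the counting. The methods name TruSeq Nano DNA (muscle) and TruSeq Stranded mRNA (fat) kits, the labels TruSeq RNA Access. Another no tumor muscle library, dropped by the authors as an outlier, was not analysed here.

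Members and lists were chosen with earlier results of these data known. Counts were normalized by TMM (R 4.3.3, edgeR 4.0.16) and the 3 groups of a tissue fitted together (glmQLFit with legacy dispersion, not robust, filterByExpr, no replicate block). FDR is Benjamini-Hochberg over all genes, and called genes have FDR up to 0.05 with FC of 1.5 or more. Tissues were compared by an interaction in 1 fit. Alternatives were DESeq2 1.42.0, edgeR's likelihood ratio test, limma 3.58.1 (voom for tissues), RLE, other filters, fewer groups, a replicate block, the share of epididymis counts and each library left out. Labels state no separate cultures or cages, so p-values measure the spread between these mice. Duplicates were checked for (chi-square per degree of freedom at least 28.9 in muscle and 84.7 in fat). The scripts were tested on simulated data. Some genes are counted but not reported by name here.

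Genes named are those of a core list of fiber channels, the 6 largest rises and falls called in KPC muscle (mean log2 CPM of 0 or more), the 4 smallest p where none was called, the highest of each family and the 6 largest tissue differences; other genes were named after their values were seen. Gene positions and exon lengths come from GENCODE vM21 (GRCm38, all 71 and 106 genes matched) and promoters from RefSeq (GRCm38.p6). The floor of 3 counts covers counting error only. Figures used Python 3.11.15 and matplotlib 3.10.9.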

Additional observations from a re-analysis of the deposited data

Results flagged for a closer look

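Single libraries stood apart from the other 3 of their group by Dixon's test at the 95% level for 14 of 186 groups of named genes (7.53%), where chance gives about 1 in 20. In muscle these were Kcnq1ot1 in KPC IL6KO replicate 4 (1.56 CPM, others 1.16 to 1.21), Kcnh2 in KPC replicate 4 (0.678 CPM, others 0.180 to 0.262) and Kcnk6 in KPC IL6KO replicate 4 (2.20 CPM, others 1.93 to 1.97). In fat they were Scn4b in no tumor replicate 8 (1.34 CPM, others 0.573 to 0.692), Scn4b in KPC IL6KO replicate 8 (13.6 CPM, others 0.319 to 2.29), Cacna1s in KPC IL6KO replicate 8 (25.6 CPM, others 0.564 to 4.40), Cacna2d1 in no tumor replicate 6 (25.9 CPM, others 38.2 to 39.3), Cacna1h in KPC replicate 7 (29.3 CPM, others 5.08 to 8.99), Kcnj11 in KPC IL6KO replicate 6 (39.8 CPM, others 0.891 to 2.66), Kcnn3 in KPC IL6KO replicate 8 (17.5 CPM, others 0.712 to 1.75), Kcna2 in KPC IL6KO replicate 8 (6.45 CPM, others 1.44 to 2.26), Kcns1 in no tumor replicate 6 (14.1 CPM, others 0.442 to 0.859), Cacna1c in KPC IL6KO replicate 8 (35.1 CPM, others 9.67 to 13.8) and Kcnk2 in KPC IL6KO replicate 6 (18.4 CPM, others 2.85 to 4.75). Of the 11 in fat, 5 were KPC IL6KO replicate 8, the library with the highest myofiber sum, and the part of muscle RNA in them was not tested.

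The KPC response differed between muscle and fat, by the interaction term of a joint edgeR quasi-likelihood fit, for 14 of the named genes. The difference (muscle log2 FC minus fat log2 FC) was Cacnb1 -1.13, Cacnb3 -3.003, Cacnb4 2.91, Clcn1 -3.53, Clcn7 1.16, Kcna2 1.87, Kcng4 -5.74, Kcnh2 -2.49, Kcnj2 1.67, Kcnk5 3.22, Kcnk6 -2.23, Kcnn2 -2.35, Kcnn4 -3.30 and Kcnq1ot1 1.14.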

How the results depend on the processing

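The counts of called ion channel genes in muscle KPC against no tumor and against KPC IL6KO stayed within 1.5 times under DESeq2, the likelihood ratio test, edgeR's newer quasi-likelihood fit, RLE normalization, no filter, a minimum of 10 counts in every library, the fit of only the groups compared and each library left out. Of 25 named genes called in KPC against no tumor (without Lrrc38), 23 were called under every alternative in which they were tested. Genes with under 10 counts in a library, such as Kcnn2, were not tested with the minimum of 10 counts. Kcnn4 was lost in the fit of 2 groups (FDR 0.0667) and without no tumor replicate 2, and Cacna1c without no tumor replicate 1 (FDR 0.0655). Against KPC IL6KO, Cacna1c fell short of the FC without KPC replicates 1 or 3 or KPC IL6KO replicate 3. Uncalled genes became called for Kcnk3 (without KPC replicate 2 against no tumor, and without KPC replicates 3 or 4 or by the likelihood ratio test against KPC IL6KO), Kcna2 and Cacna1h (each without KPC replicate 4). No result reversed.

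The median log2 FC of KPC against no tumor was -0.68 with the replicate block, and that of KPC against KPC IL6KO was -0.46 with at least 10 counts in every library. The likelihood ratio test called 1 ion channel gene lower in KPC IL6KO muscle. In fat, DESeq2 called 2 lower in KPC, 1 higher in KPC IL6KO and, between both tumor groups, 1 lower in KPC, and the likelihood ratio test called 2 lower in KPC and 1 higher in KPC IL6KO. In the comparison of tissues, limma voom called 4 higher in place of 8. The cause of these changes was not tested.

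With 1 library left out, the median log2 FC in muscle was -0.69 to -0.48 for KPC, -0.12 to -0.05 for KPC IL6KO and -0.53 to -0.24 for KPC against KPC IL6KO, with 31 to 34 lower and 12 to 14 higher in KPC and 30 to 32 lower and 13 to 15 higher against KPC IL6KO. The tissue difference had 9 to 14 lower and 2 to 9 higher. The higher count was 2 without no tumor muscle replicate 3, 4 without no tumor muscle replicate 2 or KPC muscle replicate 3, and 5 without no tumor muscle replicate 1, no tumor fat replicate 8 or KPC fat replicates 6 or 8. For KPC IL6KO it had 0 to 2 lower and 0 to 1 higher, with calls only without KPC IL6KO fat replicate 6. In fat the median was -0.66 to -0.51 for KPC, -0.38 to -0.11 for KPC IL6KO and -0.53 to -0.13 for KPC against KPC IL6KO, with 0 called.

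Replicate numbers name different mice. Deviations of same-numbered libraries correlated at -0.17 to 0.27 in muscle (2 of 10 pairs over 0.1) and -0.57 to 0.58 in fat (6 of 12), so the numbers do not pair them. With a replicate block 33 genes were lower and 12 higher in KPC muscle, 31 and 13 against KPC IL6KO, and 0 in fat.

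Depth limits the rarest genes. Scn2a1, Kcns1, Kcnn2 and Lrrc52 had KPC libraries at or under 3 counts.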
